A study of Mus musculus with 8 samples.

Results

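The 10 genes described here are components and direct outputs of the circadian clock: *Per1*, *Per2*, *Per3*, *Cry1*, *Ciart*, *Nr1d1*, *Nr1d2*, *Dbp*, *Tef* and *Clock*. They were chosen by symbol, and each has 1 row among the 47628 rows that name a gene in the count table of each mouse. All 10 passed the minimum mean count of 10 and were among the 19366 genes tested. RNA was sequenced from whole isolated cochleae of 8 mice aged 21 days, 4 WT (animals WT_4, WT_5, WT_6 and WT_8) and 4 *Opa1*+/- (animals Het_2, Het_7, Het_484 and Het_491, Het standing for heterozygous), on a mixed C57BL/6J and 129Sv/Pas background. The *Opa1*+/- mice carry 1 knock-in *Opa1* allele from which the bases TTAG were deleted, passed on through the germ line, and the WT mice were control littermates without it. The age, the background and the littermate controls come from the study's methods and text, and neither these nor the labels give the time of day at which the cochleae were collected, the light schedule or the sex of single mice. The question asked of these genes is whether the mice of the 2 genotypes sat at the same phase of the clock.

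The circadian clock is a feedback loop of transcription that most cells carry. CLOCK, or its relative NPAS2, pairs with BMAL1 (gene *Arntl*) and binds E-box sequences, and in this way drives the genes of its own repressors (PER, CRY and CIART) and of the REV-ERB receptors (*Nr1d1* and *Nr1d2*). The REV-ERB receptors in turn repress *Arntl* through ROR elements, at which the ROR receptors activate. DBP, TEF and HLF activate genes through D-boxes, and NFIL3 represses through the same sites. Genes driven through E-boxes and D-boxes therefore peak at another time of day than *Arntl* and *Npas2*, and the cochlea is known to have a clock of its own.

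The promoter sequences of 2 of these genes are shown because they hold more than 1 copy of a clock motif in a single window. Promoters were taken from RefSeq (GRCm38.p6) as 250 bases before to 50 bases after each transcription start. Entries were found for 9 of the 10 genes, all but *Per2*, and for *Arntl*, *Npas2* and *Nfil3*. The motifs searched on both strands were the E-box CACGTG, the D-box TTANNTAA, the ROR element TAGGTCA or TGGGTCA and the CRE TGACGTCA. An E-box is held by 7.15% of all 32851 promoters of this length, a D-box by 6.003%, a ROR element by 6.45% and a CRE by 1.79%. No motif overlapped another in the windows examined. *Ciart* held 3 E-boxes and *Per3* held 2 D-boxes, each set in capitals below in the 250 bases upstream of the start, read 5′ to 3′ on the strand of the gene (*Ciart*, chr3:95882229-95882478, minus strand; *Per3*, chr4:151044666-151044915, minus strand).
Ciart: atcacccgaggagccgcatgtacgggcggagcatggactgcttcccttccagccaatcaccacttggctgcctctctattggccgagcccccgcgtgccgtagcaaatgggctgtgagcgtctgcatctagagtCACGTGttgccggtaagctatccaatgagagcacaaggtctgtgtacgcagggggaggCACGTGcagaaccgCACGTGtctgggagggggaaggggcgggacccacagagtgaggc
Per3: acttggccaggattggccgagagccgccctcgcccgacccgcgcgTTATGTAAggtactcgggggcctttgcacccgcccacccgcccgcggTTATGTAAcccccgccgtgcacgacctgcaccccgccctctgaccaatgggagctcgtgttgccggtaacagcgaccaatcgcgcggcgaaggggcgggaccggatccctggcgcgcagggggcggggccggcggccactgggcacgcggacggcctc

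The other motifs found stood in the windows of *Per1*, *Cry1*, *Tef*, *Arntl* and *Nfil3*. They are shown as 30 bases around the motif, in capitals, on the strand of each gene. They are given to show which genes hold an E-box or D-box, through which they could be driven together, and which hold a ROR element. In *Nfil3* the ROR element lies on the opposite strand and reads as its reverse complement. The E-box is its own reverse complement.
Per1, E-box, chr11:69098771-69098800, plus strand: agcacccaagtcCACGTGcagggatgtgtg
Cry1, E-box, chr10:85185097-85185126, minus strand: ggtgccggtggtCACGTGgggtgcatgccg
Tef, first start, E-box, chr15:81802534-81802563, plus strand: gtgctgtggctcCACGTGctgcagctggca
Tef, first start, D-box, chr15:81802488-81802517, plus strand: cctttgcaaagTTAGATAAcaggccgggtt
Tef, second start, E-box, chr15:81811264-81811293, plus strand: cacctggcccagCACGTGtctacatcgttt
Arntl, ROR element, chr7:113207529-113207558, plus strand: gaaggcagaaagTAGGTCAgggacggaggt
Nfil3, ROR element, chr13:52981034-52981063, minus strand: ggcgctcggaacTGACCTActaacacacat

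The windows of *Nr1d1*, *Nr1d2*, *Dbp*, *Clock* and *Npas2* held none of the 4 motifs, which says only that these letters are not within these 300 bases. No CRE was found in any of the windows of these 12 genes. A match is a description of the sequence and was not tested against the counts.

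**Figure D1:**
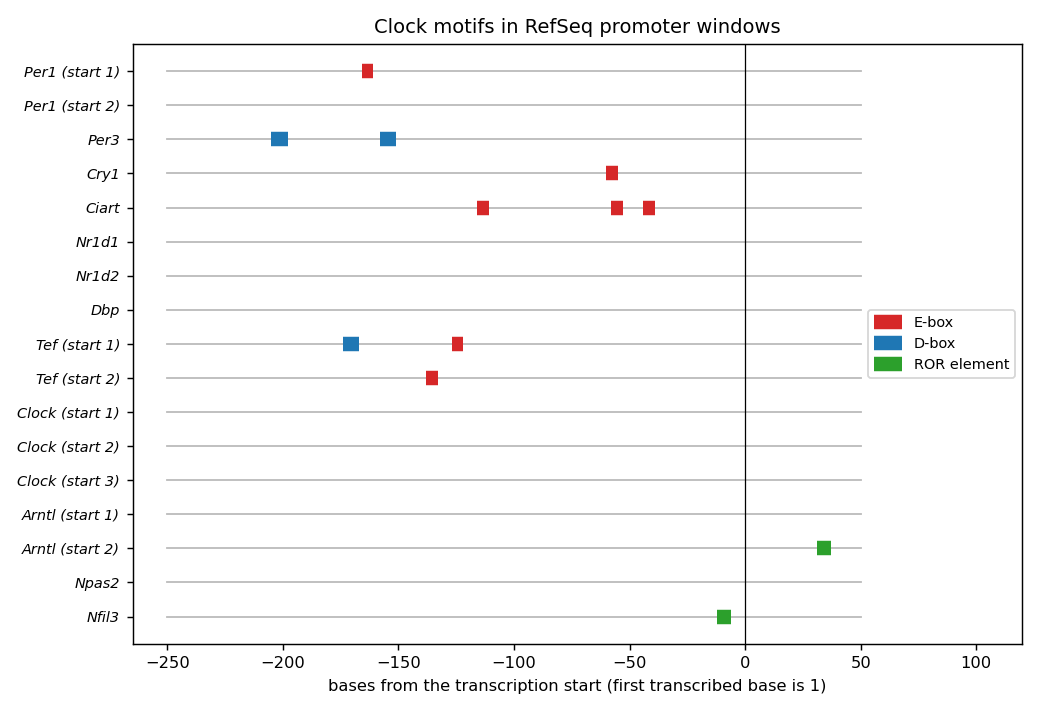
Positions of the E-box, D-box and ROR element along the RefSeq promoter windows of 9 clock genes and of *Arntl*, *Npas2* and *Nfil3*, 1 line per transcription start, in bases from the start. *Ciart* holds 3 E-boxes between positions -116 and -39, and the 2 D-boxes of *Per3* lie between positions -205 and -151.

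Counts on genes per mouse ranged from 17001431 to 20828030 in WT and from 15978051 to 20204154 in *Opa1*+/- cochleae, with overlapping ranges. Levels are CPM, the counts of a gene relative to all counts of its library, normalized by edgeR's TMM method, and ± values are SD over 4 mice. *Opa1* itself was at 118.7, 125.9, 111.7 and 122.4 CPM in WT_4, WT_5, WT_6 and WT_8, and at 63.5, 68.4, 60.4 and 70.02 CPM in Het_2, Het_7, Het_484 and Het_491. The genotype labels and the *Opa1* level matched in every mouse, with a log2 fold change of -0.87 (SE 0.0677) and an adjusted p of 0.00515 (edgeR's quasi-likelihood test, adjusted by Benjamini-Hochberg over all genes). This adjusted p was 0.0704 without Het_2 and 0.26 without Het_484 and Het_491. All 11 markers of cochlear tissue were detected above the count minimum, among them *Coch*, a protein of the spiral ligament and limbus, at 2301 to 3443 CPM. The hair cell motor protein *Slc26a5* was at 1.24 to 3.27 CPM. In whole cochleae, fewer cells of a type and less RNA per cell cannot be told apart.

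None of the 10 clock genes passed an adjusted p under 0.05 between the genotypes, either in edgeR's quasi-likelihood test or in DESeq2's Wald test, a threshold that 5 of the 19366 genes, 0.0258%, passed in edgeR and 25 genes, 0.129%, passed in DESeq2. An unadjusted p under 0.05 was reached by 1 of the 10 in edgeR, *Nr1d2*, and by 2 in DESeq2, against 6.72% of all genes in edgeR and 5.8% in DESeq2. In none of the 10 were the 4 WT mice separated from the 4 *Opa1*+/- mice, which was the case for 4.31% of all genes. All 10 log2 fold changes lay below 0, with a median of -0.15, while 50.1% of all genes lay above 0 and the median of all genes was 3.95e-04. Without Het_491 the log2 fold changes of 7 of the 10 lay below 0, with a median of -0.07, and without both Het_484 and Het_491 those of 6. Since the levels of 8 of these genes ran together from mouse to mouse, as given further on, their signs are not 10 independent observations, and the differences of 9 of the 10 had a 95% interval that included 0.

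On the scale of CPM per kilobase of annotated exon, which allows levels of different genes to be compared, *Nr1d1* was highest in WT cochleae at 24.5 ± 5.24, followed by *Nr1d2* at 17.5 ± 2.72, *Tef* at 11.8 ± 1.42 and *Per1* at 10.03 ± 1.70 (SD, n = 4). Below them came *Dbp* at 7.68 ± 2.36, *Clock* at 6.45 ± 0.426 and *Per3* at 3.54 ± 0.570, and the lowest were *Ciart* at 2.75 ± 0.845, *Per2* at 2.62 ± 0.640 and *Cry1* at 2.39 ± 0.250. Neighbours in this order had overlapping ranges of mean ± SD, except that *Nr1d2* lay above *Tef* and *Clock* above *Per3*. Exon lengths came from GENCODE vM21, which may not be the annotation the authors counted against.

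Among the repressors, *Per2* and *Ciart* showed the widest spread between mice of the 10 genes. *Per1* (chromosome 11, 69095217 to 69109960, plus strand), a repressor that also responds to light and to glucocorticoids, was at 50, 49.0, 57.1 and 69.8 CPM in WT_4, WT_5, WT_6 and WT_8. Its levels in Het_2, Het_7, Het_484 and Het_491 were 55.3, 68.3, 47.1 and 36.2 CPM. The highest mouse was WT_8 and the lowest was Het_491, and Het_7 lay just below the top. Het_484 and Het_491 lay below all WT mice, and the other 2 *Opa1*+/- mice within the WT range. The means were 56.5 ± 9.58 and 51.7 ± 13.5 CPM (SD, n = 4 each), a log2 fold change of -0.12 (95% interval -0.54 to 0.29).

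*Per2* (chromosome 1, 91415982 to 91459324, minus strand), a partner of the CRY proteins in repression, varied most of the 10 genes, by 3.32-fold from the lowest to the highest mouse. It was at 12.7, 11.8, 17.3 and 19.7 CPM in the WT mice, in the same order as above, and at 15.2, 12.2, 17.1 and 5.94 CPM in the *Opa1*+/- mice. Het_491 stood apart at the bottom, with 93 reads, and the other 3 *Opa1*+/- mice lay within the WT range. On the log2 scale the fold change was -0.28 (95% interval -0.94 to 0.37), and it was -0.05 without Het_491.

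*Per3* (chromosome 4, 151003652 to 151044665, minus strand), whose upstream stretch with its D-boxes is shown above, was at 29.3, 29.9, 40.9 and 35.8 CPM in WT and at 32.9, 36.2, 27.7 and 22.8 CPM in *Opa1*+/- cochleae. Het_484 and Het_491 lay below all WT mice and Het_2 and Het_7 within them, and the log2 fold change was -0.18 (95% interval -0.53 to 0.16). Het_491 was the lowest of the 8 mice for each of the 3 Per genes.

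*Cry1* (chromosome 10, 85131700 to 85185064, minus strand), a strong repressor of CLOCK and BMAL1, was at 7.82, 7.42, 7.47 and 9.20 CPM in WT and at 6.98, 6.32, 9.72 and 6.77 CPM in *Opa1*+/- cochleae. Here Het_484 was the highest of all and the other 3 *Opa1*+/- mice were the 3 lowest, with a log2 fold change of -0.10 (95% interval -0.45 to 0.24). *Ciart* (chromosome 3, 95878503 to 95882251, minus strand), also called Chrono, binds BMAL1 and represses E-box transcription. It was at 5.42, 3.91, 7.59 and 7.98 CPM in WT and at 5.38, 6.27, 5.63 and 4.15 CPM in *Opa1*+/- cochleae. The WT mice spanned a wider range (2.04-fold) than the *Opa1*+/- mice (1.51-fold), with the 2 highest and the lowest of all 8 mice among them, and the log2 fold change was -0.21 (95% interval -0.73 to 0.31).

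**Figure D2:**
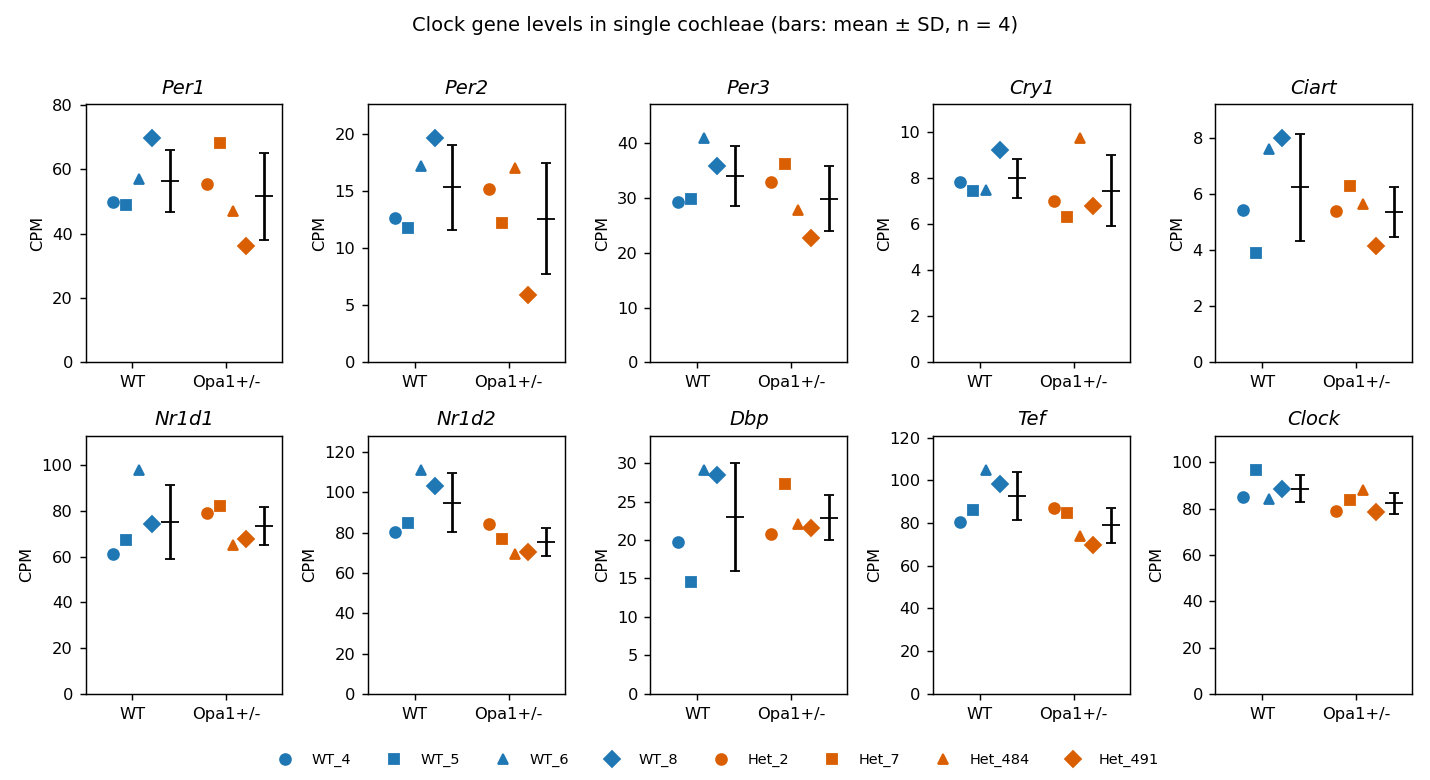
CPM (TMM) of the 10 clock genes in each cochlea, by genotype, 1 symbol per mouse, with the mean and SD of 4 mice as a bar beside the points; every axis starts at 0. The groups overlap in all 10 panels, with WT_6 and WT_8 often at the top and Het_491 lowest for *Per1*, *Per2* and *Per3*.

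The 2 REV-ERB receptors, nuclear receptors that bind heme and repress *Arntl*, gave different values. *Nr1d2* (REV-ERBβ, chromosome 14, 18204054 to 18239127, minus strand) was at 80.2, 84.9, 111.2 and 103.0 CPM in WT and at 84.4, 76.95, 69.5 and 70.5 CPM in *Opa1*+/- cochleae. The 3 lowest mice were all *Opa1*+/- and the 3 highest all WT, and only Het_2 and WT_4 crossed. The means were 94.8 ± 14.7 and 75.4 ± 6.89 CPM (SD, n = 4 each), a log2 fold change of -0.33 (SE 0.113, 95% interval -0.59 to -0.08). In edgeR's quasi-likelihood test the unadjusted p was 0.0158 and the adjusted p over all genes was 0.722, so the difference did not pass.

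*Nr1d1* (REV-ERBα, chromosome 11, 98767932 to 98775333, minus strand) was at 61.3, 67.5, 98.2 and 74.4 CPM in WT and at 79.2, 82.2, 65.1 and 67.8 CPM in *Opa1*+/- cochleae. Apart from WT_6 at the top, the genotypes were mixed over the whole range. The log2 fold change was -0.03 (95% interval -0.35 to 0.29), and it was 0.12 without WT_6. Whether the changes of *Nr1d1* and *Nr1d2* differ from each other was not tested. Of the exonic bases of *Nr1d1*, 263 (8.55%) also lie in exons of *Thra*, a thyroid hormone receptor gene on the opposite strand. Whether the counting used strand is not given in the sources used here, so reads in this overlap may belong to either gene. *Thra* was at 142 ± 11.8 CPM in WT and 150.2 ± 8.83 CPM in *Opa1*+/- cochleae (SD, n = 4 each).

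*Dbp* and *Tef* encode transcription factors that carry the rhythm to D-box genes. *Dbp* (chromosome 7, 45705088 to 45710203, plus strand), one of the outputs with the strongest daily swing in many tissues, was at 19.7, 14.6, 29.2 and 28.4 CPM in WT and at 20.8, 27.3, 22.0 and 21.6 CPM in *Opa1*+/- cochleae. The means were 23.0 ± 7.05 and 22.9 ± 2.96 CPM (SD, n = 4 each), a ratio of 0.997. All 4 *Opa1*+/- mice lay inside the range of the WT mice, which fell into a low and a high pair. The 95% interval of the log2 fold change, -0.46 to 0.46, does not exclude a difference of up to that size. *Dbp* shares 539 exonic bases, 18.0% of its own, with *Sphk2* on the opposite strand. *Sphk2*, a sphingosine kinase gene, was at 21.3 to 24.6 CPM in the 8 mice. Its Pearson's r with *Dbp* over the mice was -0.02 (Spearman's rho = -0.02), and r was -0.82 without WT_5 and WT_6, the 2 farthest from the median of *Dbp*, so the relation rests on which mice are included.

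*Tef* (chromosome 15, 81802421 to 81826863, plus strand) was at 80.7, 86.1, 105.0 and 98.5 CPM in WT and at 87.2, 84.6, 73.7 and 69.9 CPM in *Opa1*+/- cochleae. Het_484 and Het_491 lay below all WT mice, and Het_2 and Het_7 between WT_4 and WT_8. The log2 fold change was -0.23 (SE 0.103), with an unadjusted p of 0.0504 and an adjusted p of 0.741 in edgeR's quasi-likelihood test. An antisense gene, *Gm17597*, shares 193 exonic bases (2.45%) with *Tef* and was at or below 0.650 CPM in every mouse.

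*Clock* (chromosome 5, 76209868 to 76304792, minus strand), the activator, is known for an mRNA that is nearly flat over the day in many tissues, and it had the narrowest range of the 10 genes. It was at 85.1, 96.9, 84.0 and 88.3 CPM in WT and at 78.9, 83.8, 88.2 and 78.6 CPM in *Opa1*+/- cochleae, a range of 1.23-fold over all 8. Its log2 fold change was -0.11 (95% interval -0.26 to 0.05).

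**Figure D3:**
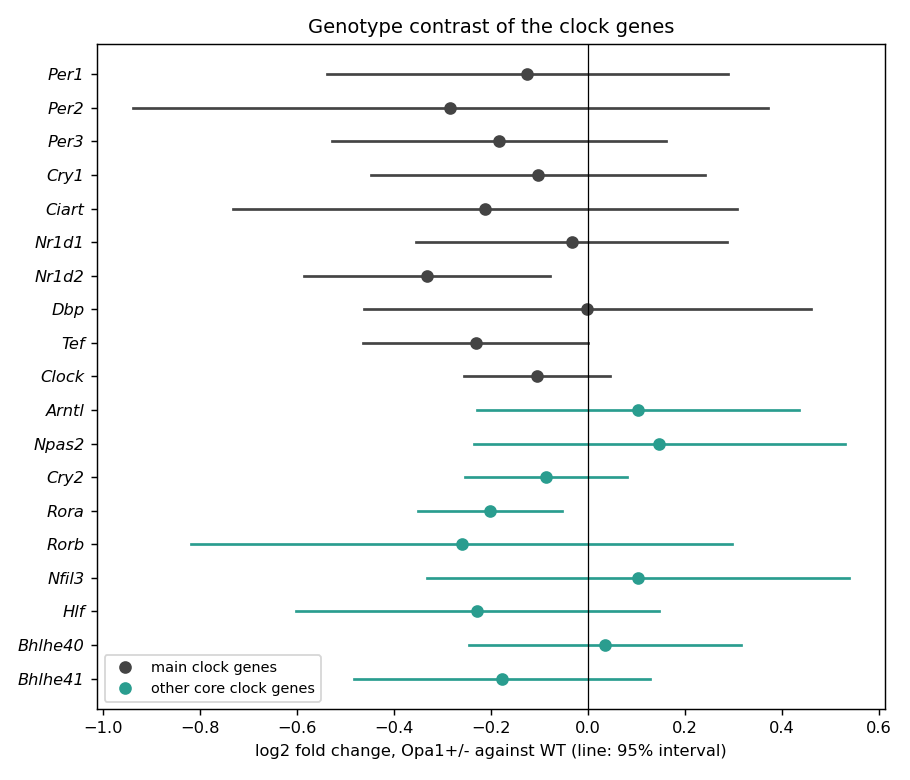
Log2 fold change of *Opa1*+/- against WT (points) with its 95% interval (lines) for the 10 clock genes and 9 other core clock genes, from edgeR's quasi-likelihood fit. Points left of 0 are lower in *Opa1*+/- cochleae; the intervals of *Nr1d2* and *Rora* lie wholly below 0, and none of the 19 genes passes the adjusted threshold.

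Within a genotype, several of these genes varied more between mice than most genes did. The within-genotype SD of log2 CPM was 0.54 for *Per2*, 0.38 for *Ciart*, 0.36 for *Dbp* and 0.32 for *Per1*. Among all tested genes with a mean count of at least 100, these lie at the 97.01, 93.9, 93.2 and 91.6 percentile. *Clock*, at an SD of 0.09, lay at the 21.05 percentile. The median of the 10 genes was 0.25, against 0.17 for all genes tested. Counting error is part of this spread for *Ciart* and *Per2*, whose lowest libraries held 65 and 93 reads.

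The spread was not independent from gene to gene. Over the 8 mice, all 28 pairs among *Per1*, *Per2*, *Per3*, *Ciart*, *Nr1d1*, *Nr1d2*, *Dbp* and *Tef* had a positive Pearson's r of log2 CPM, with a median of 0.69 and a range of 0.34 to 0.97. With *Cry1* and *Clock* included, 40 of 45 pairs were positive, the median was 0.57 and the lowest was -0.41 (*Dbp* with *Clock*). The set of 8 was formed after the values were seen, and these correlations are a description without a test. The strongest was that of *Nr1d2* with *Tef* (r = 0.97, Spearman's rho = 0.93, and r = 0.91 without WT_6 and WT_8).

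The same 2 WT mice were high and 1 mouse of each genotype was low. WT_6 and WT_8 were above the median of the 8 mice for all 8 of these genes. WT_4 and Het_491 were above it for 0 of 8, WT_5 for 2, and Het_484, Het_7 and Het_2 for 3, 5 and 6. The WT group thus held the 2 mice that were high throughout and 2 low ones, and 3 of the 4 *Opa1*+/- mice lay between these, while Het_491, like WT_4, was at or below the median for each gene.

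**Figure D4:**
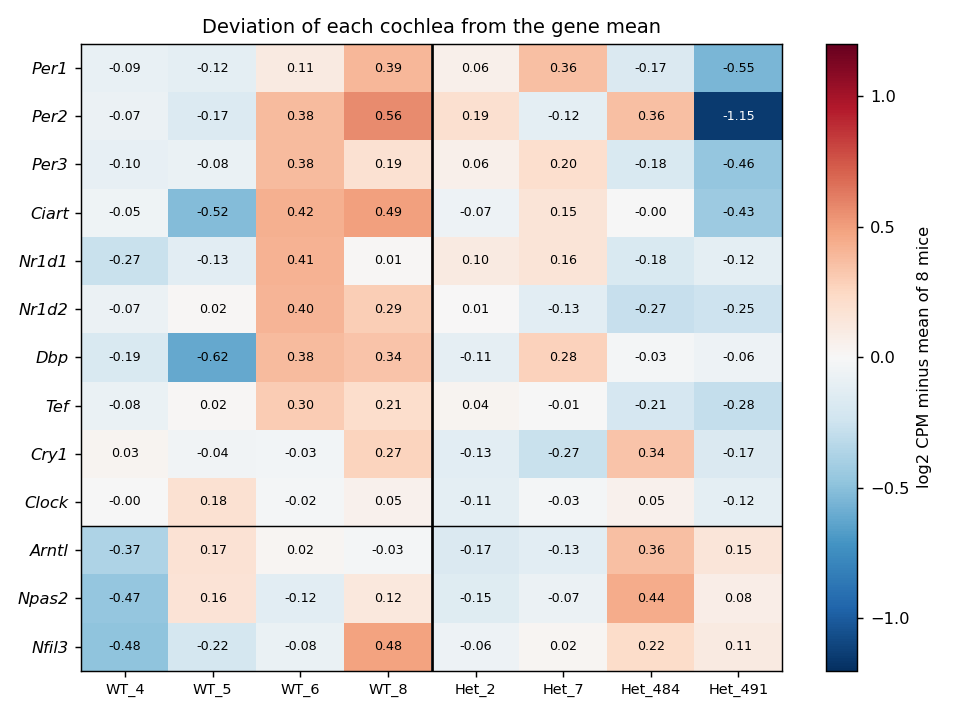
Deviation of log2 CPM from the mean of all 8 mice for the 10 clock genes (above the line) and *Arntl*, *Npas2* and *Nfil3* (below it), 1 column per mouse, red above and blue below the mean. Columns WT_6 and WT_8 lie above the mean in the rows of *Per1*, *Per2*, *Per3*, *Ciart*, *Nr1d1* (by 0.01 in WT_8), *Nr1d2*, *Dbp* and *Tef*, column Het_491 is blue for these 8 genes, with *Per2* at -1.15, and the rows of *Arntl* and *Npas2* follow another pattern.

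The summed levels of marker genes of several cell types were set beside this pattern, which they matched in some mice only. The summed level of 7 erythroid markers, all of them detected and led by the globin genes, was 21425, 12300, 8725 and 7739 CPM in WT_4, WT_5, WT_6 and WT_8 and 15421, 15040, 18431 and 25032 CPM in Het_2, Het_7, Het_484 and Het_491. WT_6 and WT_8, highest for the clock genes, were lowest here, and WT_4 and Het_491 were highest. The sum of 7 neutrophil and marrow markers, likewise all detected, was 1304, 398, 418 and 486 CPM in the WT mice, in the same order. In the *Opa1*+/- mice it was 479, 413, 796 and 1063 CPM. It was again highest in WT_4 and in Het_491, but it was lowest in WT_5 and Het_7. For 5 skeletal muscle genes, all detected, the sum was 248, 112, 1334 and 351 CPM in WT and 139, 495, 511 and 11.8 CPM in *Opa1*+/- mice. It was highest in WT_6 and lowest in Het_491, but WT_8 lay below Het_7 and Het_484. For 11 cochlear genes, *Coch* among them, the sum was 3024, 3866, 4414 and 4161 CPM in WT mice. In *Opa1*+/- mice it was 3377, 3449, 4082 and 3157 CPM. Here WT_6 and WT_8 were highest, and WT_4 and Het_491 lowest. The sum of 10 glucocorticoid-induced genes was 777, 731, 944 and 982 CPM in the WT mice, in the same order, and 839, 819, 837 and 1003 CPM in the *Opa1*+/- mice, high in WT_6 and WT_8 but highest in Het_491. The value of Het_491 came with the metallothionein genes *Mt1* and *Mt2*, at 315 and 112 CPM there. Without these 2 genes the sum, added after the values were seen, was 550, 539, 668 and 742 CPM in WT and 598, 601, 578 and 576 CPM in *Opa1*+/- mice, so that WT_6 and WT_8 were the highest of the 8. The genes of this list did not all run the same way, as 3 of them, picked after their values were seen, show. *Fkbp5*, a chaperone of the glucocorticoid receptor, was at 27.8, 17.4, 45.8 and 48.7 CPM in WT_4, WT_5, WT_6 and WT_8, and the transcription factor gene *Zbtb16* was at 8.73, 7.08, 35.8 and 30.8 CPM. In the *Opa1*+/- mice *Fkbp5* was at 24.1 to 36.1 CPM and *Zbtb16* at 8.07 to 19.6 CPM, within the WT range. *Pdk4*, a kinase gene of glucose metabolism, ran the other way, at 41.3, 80.5, 29.2 and 29.8 CPM in WT_4, WT_5, WT_6 and WT_8 and at 45.1 to 68.6 CPM in the *Opa1*+/- mice. The part of cell composition and of glucocorticoid-induced transcription in the clock gene pattern was not tested.

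*Dbp* was next set against *Arntl*, which is known to peak at another time of day. *Arntl* (chromosome 7, 113207465 to 113314126, plus strand), the partner of CLOCK, was at 13.1, 19.2, 17.3 and 16.7 CPM in WT and at 15.1, 15.5, 21.9 and 18.8 CPM in *Opa1*+/- cochleae. *Npas2* (chromosome 1, 39193731 to 39363236, plus strand), which can replace CLOCK, was at 8.56, 13.3, 10.9 and 12.9 CPM in WT and at 10.7, 11.3, 16.2 and 12.5 CPM in *Opa1*+/- cochleae. For both genes WT_4 was lowest and Het_484 highest, and r between them was 0.93 (rho = 0.88, r = 0.72 without WT_4 and Het_484), a pair picked after the values were seen. *Nfil3* (chromosome 13, 52967209 to 52981073, minus strand), the D-box repressor, was at 5.31 to 10.4 CPM in WT and 7.15 to 8.66 CPM in *Opa1*+/- cochleae. The log2 fold changes were 0.10 (95% interval -0.23 to 0.44) for *Arntl*, 0.15 (-0.24 to 0.53) for *Npas2* and 0.10 (-0.33 to 0.54) for *Nfil3*, so none of the 3 passed.

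The ratio of *Dbp* to *Arntl* CPM was 1.5, 0.761, 1.69 and 1.70 in WT_4, WT_5, WT_6 and WT_8 and 1.38, 1.75, 1.01 and 1.146 in Het_2, Het_7, Het_484 and Het_491. The mouse with the lowest ratio was WT_5 and the one with the highest was Het_7, and the other 3 *Opa1*+/- mice lay within the WT range. The ratio is a description of the 2 levels and does not order the mice by phase, since no inverse relation of the 2 genes was detected over these mice, as given next. WT_4, for example, had a ratio of 1.5 with the second lowest level of *Dbp* and the lowest of *Arntl*. Het_484 and Het_491, with 3-digit numbers, had the lowest ratios of their genotype. No WT mouse has such a number, and what the numbers mark is not given, so numbering and genotype cannot be told apart for these mice. Without them, the log2 fold changes of *Per1*, *Per3*, *Nr1d1* and *Dbp* lay above 0 and those of the other 6 clock genes below it.

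Of 12 relations of *Dbp* with the other 9 clock genes, *Arntl*, *Npas2* and *Nfil3* over the 8 mice, 1 passed. *Dbp* and *Ciart* had a Pearson's r of 0.88 (exact permutation p = 0.0028, adjusted over the 12 relations 0.0336) and a Spearman's rho of 0.88 (exact permutation p = 0.00724, adjusted 0.0869, which does not pass). Without WT_5 and WT_6, the farthest from the median of *Dbp*, r was 0.75. It was 0.93 after the mean of each genotype was removed, a check added after the data were seen. The adjusted permutation p of this check, 0.0122, is only approximate, because the pairings ran across both genotypes after the means were removed. Within the groups of 4 mice r was 0.995 in WT and 0.62 in *Opa1*+/- cochleae. The adjusted p of the relation was between 0.069 and 0.217 when WT_5, WT_6, WT_8, Het_2, Het_7 or Het_484 was left out, with r no lower than 0.82, and 0.0667 without both Het_484 and Het_491. Without WT_4 or Het_491 it was 0.031 and 0.00952, so the call, though not the size of r, depends on which mice are included.

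An inverse relation of *Dbp* and *Arntl* was not detected. Pearson's r was -0.14 (exact permutation p = 0.752, adjusted 0.902) and Spearman's rho was 0.07 (exact permutation p = 0.882, adjusted 0.882), with r = 0.12 without WT_5 and WT_6. Leaving out WT_5 alone turned the sign to r = 0.15. The other 10 relations had r between -0.41 (*Clock*, 0.43 without WT_5 and WT_6) and 0.65 (*Nr1d1*), with adjusted exact permutation p of 0.394 or more. With 8 mice these values leave a wide range of true relations possible.

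**Figure D5:**
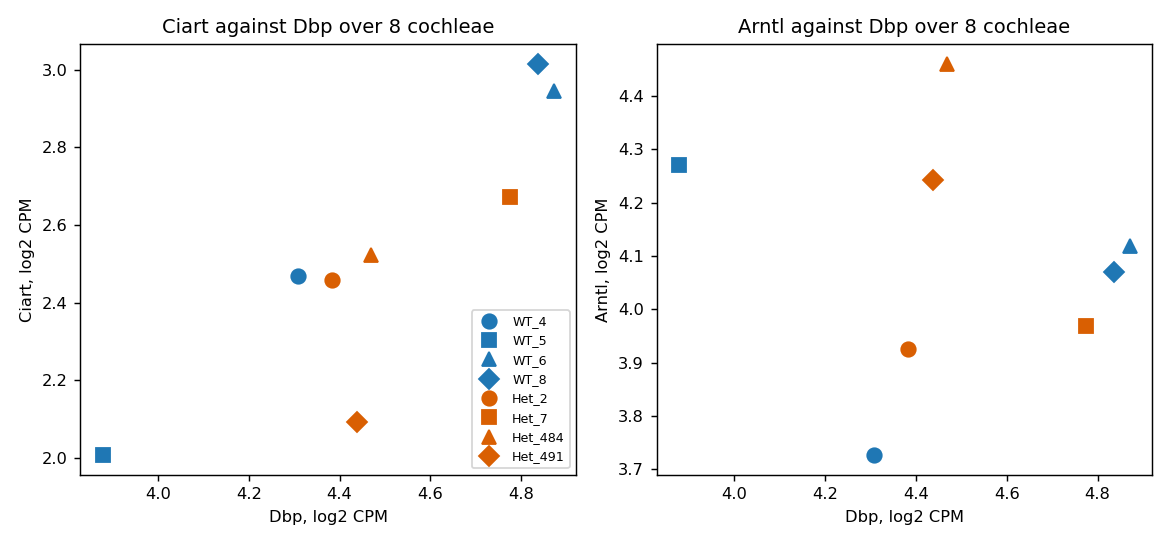
Log2 CPM of *Ciart* (left) and of *Arntl* (right) against log2 CPM of *Dbp*, 1 symbol per cochlea, coloured by genotype. *Ciart* climbs with *Dbp* from WT_5 to WT_6 and WT_8 (r = 0.88), and *Arntl* does not follow *Dbp* in either direction (r = -0.14).

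Among the 13560 genes compared, those most like *Dbp* over the 8 mice by Pearson's r of log2 CPM were *Asic3* (0.96), *Il34* (0.94), *Eri3* (0.93), *Madd* (0.92) and *Aifm3* (0.91). The most opposed were *Khdrbs3* (-0.92), *Cul1* (-0.91), *Mut* (-0.90), *Acaca* (-0.90) and *Orc3* (-0.90). These are the extremes of many genes over 8 points and are given as a description. An r above 0.8 was reached by 119 genes and an r below -0.8 by 66.

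The other core clock genes gave no call either. Of 9 (*Arntl*, *Npas2*, *Cry2*, *Rora*, *Rorb*, *Nfil3*, *Hlf*, *Bhlhe40* and *Bhlhe41*), 0 passed the adjusted threshold, 5 had a log2 fold change below 0 and 4 above, and the median was -0.09. *Rora* (chromosome 9, 68653786 to 69388246, plus strand), an activator at ROR elements, was at 52.3, 56.7, 59.8 and 59.1 CPM in WT and at 45.5, 48.7, 52.2 and 51.8 CPM in *Opa1*+/- cochleae. All *Opa1*+/- mice lay below all WT mice, by a small margin between WT_4 and Het_484. The log2 fold change was -0.20 (SE 0.0662), with an unadjusted p of 0.0132 and an adjusted p of 0.722 in edgeR's quasi-likelihood test. *Hlf*, the third D-box activator, was at 60.0 to 103.2 CPM in WT and 55.1 to 71.0 CPM in *Opa1*+/- cochleae, with WT_6 highest.

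Of the kinases and ubiquitin ligase subunits that act on PER and CRY proteins, 5 (*Csnk1d*, *Csnk1e*, *Fbxl21*, *Btrc* and *Fbxw11*) were tested and had log2 fold changes between -0.07 and -0.01, none with an unadjusted p under 0.05. Of 5 clock outputs shared by many tissues (*Usp2*, *Wee1*, *Tspan4*, *Nampt* and *Por*), 0 had an unadjusted p under 0.05, 4 lay below 0 and the median was -0.03. *Usp2* was at 29.9, 30.8, 44.5 and 40.1 CPM in WT_4, WT_5, WT_6 and WT_8 and at 31.0 to 38.7 CPM in *Opa1*+/- cochleae. It was high in the same 2 mice as *Dbp*, and so was *Wee1*. The rest of this list differed, as *Tspan4* was lowest in WT_8, *Nampt* highest in WT_5 and *Por* highest in Het_7.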

How the data were processed

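Cochlear RNA of 8 mice, 4 per genotype as given by the labels, was analysed. The authors prepared CORALL libraries, sequenced paired reads of 80 nucleotides, used molecular identifiers, aligned the reads with STAR to GRCm38, and deposited raw counts per gene for each mouse, without normalization. The methods name the CORALL Data Analysis Pipeline for the raw data. The counting tool within it, the annotation and the use of strand are not given in the sources used here. Rows with a number in place of a symbol (15, 0.112 to 0.124% of counts) were left out.

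Library sizes were the counts on named genes (15978051 to 20828030), scaled by TMM in edgeR 4.0.16. Genes with a mean normalized count over 10 (19366) were tested by edgeR's quasi-likelihood test, with p-values adjusted by Benjamini-Hochberg (threshold 0.05). Intervals of 95% used the SE and the degrees of freedom of that test. The lowest count behind any of the 10 clock genes was 65 reads (*Ciart*), so such values carry counting error. Correlations used log2 CPM (prior count 2) and exact permutation over the 40320 pairings.

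The text names all 10 clock genes, *Opa1*, the 5 genes most and least like *Dbp*, and genes whose exons overlap a clock gene. It also names genes of the other lists with an unadjusted p under 0.05 or used in the *Dbp* relations. Up to 4 further examples with values per list were planned. The glucocorticoid-induced list has more, *Fkbp5*, *Zbtb16*, *Pdk4*, *Mt1* and *Mt2*. The lists of other core clock genes, of kinases and ubiquitin ligases and of shared outputs are also spelled out in full. *Fkbp5*, *Zbtb16*, *Coch*, *Slc26a5*, *Usp2*, *Pdk4*, *Mt1*, *Mt2* and *Hlf* were added after their values were seen. The clock genes and all lists were chosen with earlier results of these data known, and 2 genes of these lists are not reported here. The alternatives were DESeq2 size factors, total counts, no filter, DESeq2 1.42.0, limma 3.58.1 (voom with sample weights), robust estimation, another prior count, each mouse left out, and Het_484 and Het_491 left out. Scripts ran in Python 3.11.15 and R 4.3.3, with figures from matplotlib 3.10.9. That the 4 mice of a genotype are separate animals comes from their numbers in the labels.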

Additional observations from a re-analysis of the deposited data

Results flagged for a closer look

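*Bhlhe40*, a repressor of E-box transcription, was at 63.0 CPM in WT_6, apart from the other 3 WT mice at 42.5 to 45.3 CPM. The gap to the nearest mouse was 0.864 of the range of the group, above Dixon's 95% critical value for 4 samples. In *Opa1*+/- mice *Bhlhe40* was at 45.1 to 54.5 CPM. This was the only value that stood apart in this way among 40 groups of 4 mice examined for the clock genes and *Opa1*, and chance gives about 1 in 20 groups. WT_6 was also the highest of the 8 for *Per3*, *Nr1d1*, *Nr1d2*, *Dbp*, *Tef* and *Hlf*.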

How the results depend on the processing

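Under every alternative, including each mouse left out, 0 of the 10 clock genes and 0 of the other 9 passed the adjusted threshold, and the lowest adjusted p was 0.381 (*Nr1d2* and *Rora* without WT_4). By DESeq2's Wald test, which called 22 genes higher and 3 lower against 4 and 1 in edgeR, none of the 19 passed either. The number of clock genes with an unadjusted p under 0.05 was 2 in place of 1 with DESeq2 size factors, with no filter, with DESeq2's Wald test and with robust estimation, 1 to 2 with single mice left out, and 0 without Het_484 and Het_491. That of the other clock genes was 1 to 2 with single mice left out. The share of all genes with such a p moved as well. It was 6.78%, 4.54%, 5.8% and 6.58% in the first 4 of these settings, 3.71% (without WT_8) to 10.4% (without WT_4) with single mice left out, and 2.9% without Het_484 and Het_491. Total counts alone moved the median of all genes to -0.03 on the log2 scale.

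Signs of small differences turned. With limma voom the log2 fold changes of *Nr1d1* and *Dbp* were 0.031 and 0.074. Without Het_484 and Het_491 those of *Per1*, *Per3*, *Nr1d1* and *Dbp* were 0.13, 0.024, 0.0995 and 0.066, those of *Arntl* and *Npas2* were -0.11 and -0.052, and 6 of the 10 clock genes lay below 0, against 7 to 10 with single mice left out (7 without Het_491). With single mice left out the log2 fold change ran from -0.29 to 0.0089 for *Per1*, from -0.12 to 0.12 for *Nr1d1*, from -0.17 to 0.13 for *Dbp*, from -0.0060 to 0.18 for *Arntl*, from -0.021 to 0.33 for *Nfil3* and from -0.022 to 0.18 for *Bhlhe40*. It kept its sign but not its size for *Per2* (-0.46 to -0.05), *Per3* (-0.29 to -0.08), *Cry1* (-0.25 to -0.03), *Ciart* (-0.38 without WT_5 to -0.07 without WT_8), *Clock* (-0.14 to -0.06 without WT_5), *Npas2* (0.014 to 0.23), *Hlf* (-0.32 to -0.04), *Rorb* (-0.41 to -0.08), *Cry2* (-0.13 to -0.04) and *Bhlhe41* (-0.30 to -0.08). In proportion to its size it moved less for *Nr1d2* (-0.40 to -0.25), *Tef* (-0.29 to -0.16) and *Rora* (-0.24 to -0.16). The median of the 10 clock genes ran from -0.27 to -0.07, and r of *Dbp* with *Arntl* from -0.39 to 0.15. The log2 fold change of *Opa1* ran from -0.90 to -0.83 and was -0.86 without Het_484 and Het_491, where it did not pass (adjusted p = 0.26). The cause of these shifts was not tested, beyond the fewer mice.

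The WT mice were control littermates, but which mice shared a litter is not given in the sources used here. No paired analysis by litter was therefore possible, and the tests treat the mice as unrelated. The time of day of collection is not given in the sources used here, and no difference in phase was measured.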

Other observations

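Other lists were followed because they respond to handling, stress or tissue makeup. Genes of 1 list can vary together from mouse to mouse, so their signs are not independent observations. Of all genes tested, 50.1% had a log2 fold change above 0. All 8 immediate early genes had a log2 fold change above 0 (median 0.15), but none had an unadjusted p under 0.05, and their summed level was 112 to 129 CPM in WT and 113 to 163 CPM in *Opa1*+/- cochleae, highest in Het_7. Of 10 glucocorticoid-induced genes 7 lay below 0 and 3 above, with a median of -0.10 and none with an unadjusted p under 0.05. Of 6 genes that respond to cold or heat 5 lay below 0, likewise with no unadjusted p under 0.05.

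All 7 erythroid markers lay above 0, with log2 fold changes of 0.52 to 0.59, and none had an unadjusted p under 0.05 (exact permutation p of the sum = 0.171). All 5 Schwann cell genes lay above 0 (median 0.22) and all 5 skeletal muscle genes below (median -0.80), again with none at an unadjusted p under 0.05. The neutrophil list had 3 of 7 above 0, the bone list 1 of 5 and the spiral ganglion list 3 of 5, none with an unadjusted p under 0.05.

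Of 11 cochlear genes 9 lay below 0. *Otor*, which encodes otoraplin, a secreted protein of the cochlea, was at 36.0, 49.2, 38.7 and 40.1 CPM in WT mice and at 32.3, 28.3, 33.5 and 21.3 CPM in *Opa1*+/- cochleae. The groups did not overlap, and the log2 fold change was -0.51 (SE 0.145), with an unadjusted p of 0.00632 and an adjusted p of 0.722 in edgeR's quasi-likelihood test, so the difference did not pass.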
